A study of Mus musculus with 24 samples.

Results

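The cytosolic ribosomal protein genes encode the protein parts of the small (40S) and large (60S) subunits of the ribosome that translates nuclear-encoded mRNAs. They were taken from a hippocampal RNA-seq table as all symbols of the form Rps or Rpl followed by a number, plus Rpsa, Rplp0, Rplp1 and Rplp2, leaving out named pseudogenes and the Rps6 kinases. Among the 23240 genes listed, 84 symbols met this naming rule. The filter on low values, which asked for 10 or more normalized counts in 4 or more libraries, kept 80 of them, and 15225 genes in all. Assigned by symbol alone, 33 of the 80 belong to the small and 47 to the large subunit. The 33 include Rps4l, recorded as a transcribed pseudogene. These 80 are called the members here. The 4 symbols that did not pass were Rpl26, Rpl3l, Rpl39l and Rpl10l. Rpl26 lay closest to the limit, with a mean value of 6.69 and 2 libraries at 10 or more, while Rps27, the member closest to it from above, had a mean of 29.3 and 24 such libraries.

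The series holds 24 poly(A)-based libraries from the hippocampus of male wild-type C57BL/6 mice aged 4 to 8 months. Its 5 groups were stressed mice given electroconvulsive therapy (ECT) on a diet with PLX5562 (n = 4), stressed mice given sham treatment on the PLX5562 diet (n = 5), stressed ECT mice on the control diet (n = 6), stressed sham mice on the control diet (n = 5) and nonstressed, untreated mice on the control diet (n = 4). PLX5562 is listed in the labels as an inhibitor of the receptor CSF1R, on which microglia depend, and is called PLX below. Diets began 3 weeks before chronic unpredictable stress (CUS), a schedule of changing mild stressors over 5 weeks, and ECT or sham treatment followed at 3 sessions a week for 2.5 weeks under light isoflurane. No nonstressed group received PLX, so the diet was compared within stressed mice only, and within sham and ECT separately. No nonstressed group received sham treatment either, so a difference from nonstressed mice holds stress together with sham treatment or ECT, which cannot be told apart. Whether every library is its own mouse is not stated, so the p-values describe library-to-library spread, which may be technical.

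Ribosomal proteins are needed in fixed proportions, and protein made in excess of them is degraded. Their mRNAs typically begin with a terminal oligopyrimidine (TOP) tract, through which the kinase mTOR and the RNA-binding protein LARP1 adjust translation of the whole set together. In neurons part of the ribosomal protein mRNA pool is carried into axons and dendrites, and local translation there is a known part of synaptic plasticity.

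Members shared sequence features around their transcription starts. RefSeq windows on GRCm38.p6, reaching 250 bases before to 50 after a start, were matched to 59 of the 80 members and gave 70 windows. The polypyrimidine initiator, searched as the letters CTTT with a C or T directly on either side, on the transcribed strand within 50 bases either side of the start, was found in 41 of 70 member windows (58.6%) and in 13.4% of all 32851 windows. The ETS-type core CGGAAG, searched on both strands over the whole window, was found in 43 of 70 (61.4%) and in 16.9% of all. Both motifs stood in 35.7% of member windows and in 1.71% of all windows. Matches may overlap, and each window was counted once per motif. A match describes letters in a window only. The stretches below reach 45 bases before to 15 bases from a start and are shown because their genes recur in the results. Rps12 is the member past the threshold for diet, Rpl18 stood next to it, Rps9 was among the members whose PLX sham and control-diet sham libraries did not overlap, Rpl27a and Rps4x followed the shared profile most closely, and Rps27l followed it least. Capitals mark the initiator motif.
Rps12, chr10:23787195-23787254, minus strand: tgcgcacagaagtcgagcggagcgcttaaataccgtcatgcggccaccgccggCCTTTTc
Rpl18, chr7:45718026-45718085, plus strand: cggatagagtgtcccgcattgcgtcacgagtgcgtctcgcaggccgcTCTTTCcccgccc
Rpl27a, chr7:109519150-109519209, plus strand: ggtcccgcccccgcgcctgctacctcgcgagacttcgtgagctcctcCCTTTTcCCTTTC
Rps9, chr7:3703996-3704055, plus strand: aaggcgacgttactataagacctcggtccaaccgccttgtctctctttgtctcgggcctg
Rps4x, chrX:102189377-102189436, minus strand: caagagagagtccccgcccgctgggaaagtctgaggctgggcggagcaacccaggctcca
Rps27l, chr9:66946041-66946100, plus strand: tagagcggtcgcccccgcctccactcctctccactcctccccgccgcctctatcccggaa
Rps12, Rpl18 and Rpl27a hold the initiator motif just downstream of the start, and the other 3 stretches hold none. Rps27l had 2 windows, and only the first listed is shown. The starts shown for Rps12, Rpl18, Rps9 and Rps27l lie inside the gene's recorded span, so these stretches need not hold its outermost start. Of the 2 genes most like the shared profile, Rpl27a holds it and Rps4x does not.

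The members lay on 19 chromosomes. Chromosome 7 carried 14 of them, the most of any chromosome. All 80 matched RefSeq by symbol, and 1 of them, Rps4l, is recorded there as a transcribed pseudogene, at 148354656 to 148355596 on chromosome 6. Levels differed widely between members. In normalized read counts, which are reads divided by a library's size factor, the highest means were 9979 for Rpl4 and 8736 for Rpl3, core proteins of the large subunit. A coding transcript length was at hand for 79 members, and Rps4l had none. Divided by transcript length, the highest level was 12310 normalized counts per kilobase for Rplp1, a protein of the flexible stalk that recruits elongation factors. The lowest per kilobase were Rps27, a zinc-finger protein of the small subunit, at 85.0, and Rpl30, a small protein of the large subunit, at 94.1. Near-identical copies elsewhere in the genome can take reads from a member, and no source used here says how the authors counted such reads. Of 9 listed copies whose symbols carry -ps or end in rt, Rpl37rt had the highest mean at 35.8 normalized counts. Copies under other names were not counted among these, and Rps4l, the recorded pseudogene, had a mean of 313.5. The low values of Rps27, Rpl30, Rpl34 and Rpl26 are uncertain as levels, and the part of such copies in them was not tested.

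Several members have a paralog, compared here per kilobase of transcript over all libraries. Rpl22, an RNA-binding protein of the large subunit, had a mean level of 737 normalized counts per kilobase and its paralog Rpl22l1 had 414. These rest on median lengths of 2048 and 538.5 bases, and the mean normalized counts were 1509 and 223. Rpl7, of the large subunit, had 3217 and its paralog Rpl7l1 had 368. For Rps27 and Rps27l the symbol without the suffix was the lower one, at 85.0 against 226 normalized counts per kilobase. Rpl3l, the striated-muscle paralog of Rpl3, had 1.88 to 6.93 normalized counts over the 24 libraries. Rpl39l and Rpl10l, paralogs known from testis, had at most 3.75 and 1.05, and none of these 3 had more than 7 reads in a library. Between groups, Rpl22l1 averaged 229.7 ± 20.2 normalized counts in PLX ECT and 218 ± 13.0 in PLX sham libraries, against 228 ± 13.8 in control-diet ECT, 219 ± 16.8 in control-diet sham and 219 ± 16.4 in nonstressed libraries (SD, n = 4, 5, 6, 5 and 4).

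Depth was 14.97 M to 20.12 M gene reads per library, of which the members took 1.42% to 1.85%. By group, depth was 15.66 M to 20.12 M in PLX ECT and 15.75 M to 17.75 M in PLX sham libraries. It was 14.97 M to 15.996 M in control-diet ECT and 15.16 M to 16.23 M in control-diet sham libraries. Nonstressed libraries had 16.55 M to 17.69 M. Whether depth had a part in the diet comparisons was not tested. Replicates differed by more than sampling noise in each of 47 pairs. The tissue carried its labelled markers in every library: Neurod6, a transcription factor gene of pyramidal neurons, had at least 3490 normalized counts, and Prox1, which marks granule neurons, at least 725. Choroid plexus and thalamus markers varied widely within groups, with Ttr at 904 to 78579 and Tcf7l2 at 92.9 to 1259 normalized counts. PLX sham library 17 stood apart in ribosomal RNA, with Rn45s at 2.90% of reads and at most 1.01% in the others. In bulk tissue, fewer cells of a type and less RNA per cell cannot be told apart.

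The members moved as a block from library to library. Their mean level per library, in log2 units around each member's own mean over the 24 libraries, was 0.055, -0.049, -0.032 and -0.097 in the 4 PLX ECT libraries. It was -0.042, -0.0093, -0.099, -0.071 and -0.145 in the 5 PLX sham libraries, all of which lay below 0. In the 6 control-diet ECT libraries it ran from -0.095 to 0.083. The 5 control-diet sham libraries gave 0.088, 0.116, 0.065, 0.0087 and -0.039, so 4 of them were above every PLX sham library and library 11 was below library 18 of that group. The nonstressed libraries were the most spread, at -0.0027, 0.025, 0.237 and -0.1097. Library 24, a nonstressed one, had the highest level in the series, with 78 of 80 members above their own mean, while library 25 of the same group had 1. Group means were -0.031 ± 0.063 for PLX ECT, -0.073 ± 0.052 for PLX sham, 0.017 ± 0.064 for control-diet ECT, 0.048 ± 0.062 for control-diet sham and 0.038 ± 0.145 for nonstressed mice (SD, n = 4, 5, 6, 5 and 4). As a share of reads the means were 1.52% ± 0.079, 1.48% ± 0.068, 1.57% ± 0.048, 1.61% ± 0.051 and 1.62% ± 0.17 in the same order.

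**Figure D1:**
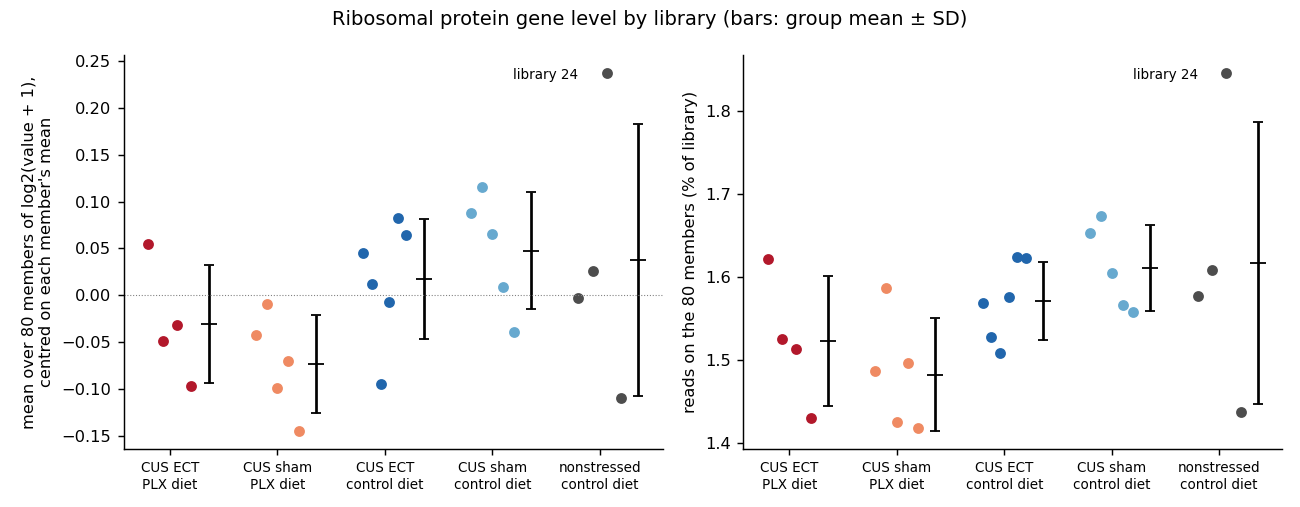
Level of the 80 members in each library, as the mean of log2(normalized count + 1) centred on each member's mean over all libraries (left) and as the percent of a library's reads (right). Each point is 1 library and black bars are group means ± SD; library 24 stands at 0.237 and 1.85%, above all others, and the 5 PLX sham libraries all lie below 0 on the left.

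How closely each member followed the others was described with group means removed, so that group differences did not enter. Over the 24 libraries the correlation of a member with the mean of the other members had a median of 0.894 and ranged from 0.124 to 0.966, and 74 of 80 members (92.5%) were above 0.5. For the 15145 other genes tested the median correlation with the member mean was -0.0051, and 4.77% were above 0.5. These other genes were not matched to the members for level. All points share library preparation, depth and the size factor, and genes are not independent replicates. Libraries 24 and 25 stayed in these correlations, and the nonstressed SD of the member level, 0.145, exceeded the 0.052 to 0.064 of other groups. How the correlations stand without libraries 24 and 25 was not tested. The members most like the rest were Rps4x (0.966) and Rpl27a (0.966), proteins of the small and large subunit. Rpl27a had 4409.7, 4097, 4182 and 4109.8 normalized counts in PLX ECT libraries and 4126, 4268, 3937, 4022 and 3919 in PLX sham libraries. It had 3979 to 4547 in control-diet ECT libraries (median 4357) and 4507, 4555, 4539, 4304 and 4209.8 in control-diet sham libraries. It had 4247, 4378, 5217 and 3936 in nonstressed libraries. The highest and the lowest of its nonstressed values belong to libraries 24 and 25, as for the mean of all members.

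The 7 members with the lowest mean counts, 29.3 to 719.6, had correlations of 0.124 to 0.579, and the other 73, with means of 1026 to 9979, had 0.609 to 0.966. The 7 were Rps27, Rpl30, Rpl34, Rps27l, Rpl22l1, Rps4l and Rpl7l1, of which Rps27l, Rps4l and Rpl30 were least like the rest. Counting error is larger for such genes, and its part in the low correlations was not tested. Rps27l, a paralog of Rps27 that is a known target of the tumour suppressor p53, had 119, 116, 94.1 and 103 normalized counts in PLX ECT libraries and 122, 118, 114, 105 and 120.3 in PLX sham libraries. It had 98.2 to 149 in control-diet ECT libraries (median 125), 133, 109, 108, 129 and 126 in control-diet sham libraries, and 135, 134, 167 and 125 in nonstressed libraries. Its PLX and control-diet groups overlapped in both sham and ECT mice, and the nonstressed values were the highest on average.

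**Figure D2:**
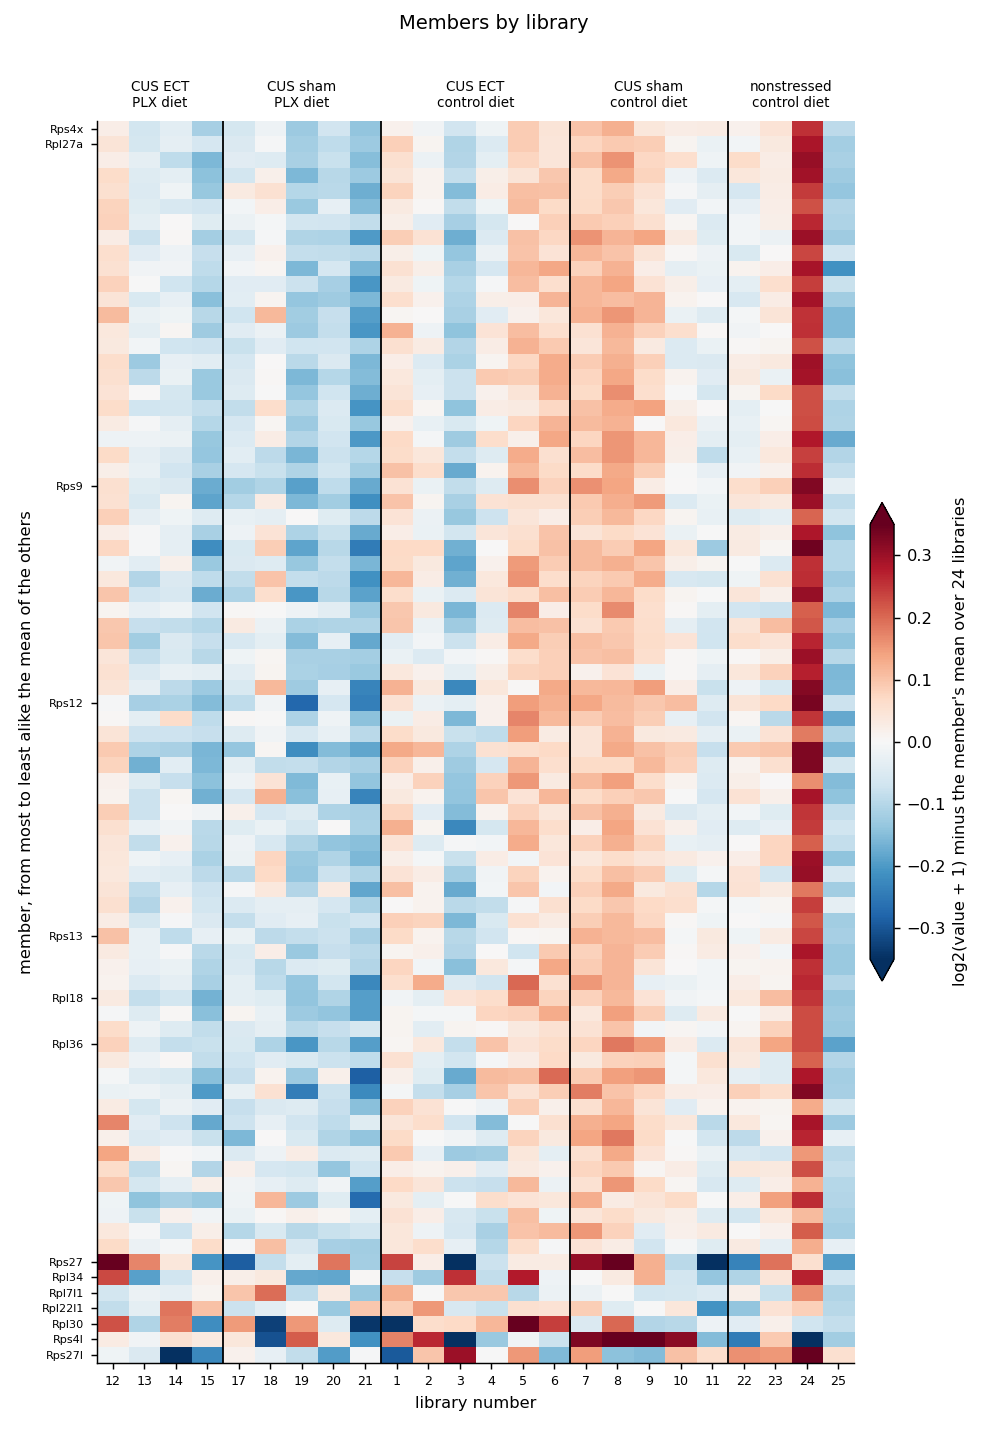
Each row is 1 of the 80 members, from most (top) to least (bottom) alike the mean of the others, and each column is 1 library, grouped by condition; colour is log2(normalized count + 1) minus the member's mean over the 24 libraries, limited to ±0.35, and 14 rows are labelled by name. Most rows share the same column pattern, with library 24 high and libraries 21 and 25 low, and the rows at the bottom, such as Rps27l, Rps4l and Rpl30, depart from it.

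Genes outside the naming rule that work with the ribosome followed the same profile to differing extents. The 4 tested genes for ribosomal proteins with other names, among them Fau, Gnb2l1 (RACK1, a scaffold on the small subunit) and Rpl36al, had a median correlation of 0.882 with the member mean. Gnb2l1 was the non-member most like the members among all genes tested, at 0.901, and Fau had 0.881. The 7 elongation factors had a median of 0.701. Other TOP mRNAs (11 genes, such as Tpt1 and Eif4b) had 0.588, nuclear-encoded oxidative phosphorylation genes (79 genes) 0.575 and snoRNA host transcripts (6 genes) 0.447. Mitochondrial ribosomal proteins (77 genes) had 0.305, ribosome assembly factors (34 genes) 0.097 and regulators of mTOR, MYC and translation (19 genes) -0.217.

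**Figure D3:**
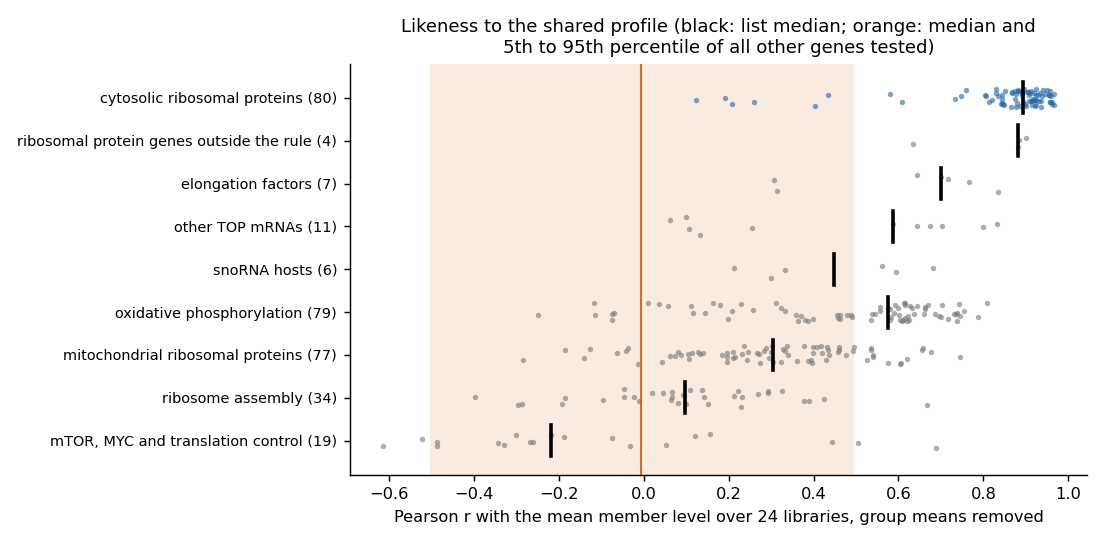
Pearson correlation of each gene with the mean member level over 24 libraries after removing group means, by gene list, with the number of genes in brackets; for members the mean leaves out the gene itself. Black lines are list medians, from 0.894 for members to -0.217 for regulators of mTOR, MYC and translation, and the orange band spans the 5th to 95th percentile of all other genes.

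In PLX sham against control-diet sham libraries, 79 of 80 members had a negative log2 fold change, with a median of -0.12, while the median of all genes tested was 0.00098 and 49.6% of them were negative. None of the 80 members passed the threshold of an adjusted p below 0.05 (limma, Benjamini-Hochberg over all 15225 genes), where 1.86% of all genes did, and the smallest adjusted p was 0.098, for Rpl36. At an unadjusted p below 0.05, 43 members were lower and 0 higher, against 5.54% of all genes lower. That count was 26 without control-diet sham library 8 (4.68% of all genes) or without PLX sham library 21 (5.61%), and 41 without library 17 (5.44%). Run on recovered reads, edgeR and limma-voom also called 0 members, and DESeq2 called 2, Rpl6 and Rpl36, and 2.1% of all genes. With limma, leaving out nonstressed library 24 gave 2 calls, Rps12 and Rps9 (1.9% of all genes), and leaving out library 25 gave 1, Rpl36 (1.95%). Every PLX sham library was below every control-diet sham library for 18 members, against 2.51% of all genes, 11 of the large subunit (among them Rplp0, the base of the stalk) and 7 of the small subunit (among them Rps6, the substrate of the Rps6 kinases). By subunit, median log2 fold changes were -0.12 for the 47 large-subunit members and -0.11 for the 33 of the small subunit.

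Rpl36, a protein of the large subunit, had 1478, 1423, 1331, 1431 and 1340.1 normalized counts in PLX sham libraries against 1615, 1743, 1698, 1559.9 and 1482 in control-diet sham libraries. The groups did not overlap, though 1478 and 1482 nearly met. Its log2 fold change was -0.21 ± 0.06 (SE, as for every fold change here). Rps9, a protein of the small subunit near the decoding centre, had 2707, 2739.6, 2579, 2766 and 2608 in PLX sham libraries against 3291, 3239, 2999, 2945 and 2923 in control-diet sham libraries. Those groups did not overlap either, with a log2 fold change of -0.20 ± 0.06 and an adjusted p of 0.11 in limma. Rps13, of the small subunit, had 1773, 1690.1, 1702, 1709.7 and 1667 in PLX sham libraries against 1959, 1948, 1943, 1794 and 1846 in control-diet sham libraries, again with no overlap (log2 fold change -0.15 ± 0.05, adjusted p 0.20 in limma). Rpl7l1 was the 1 member with a positive value, 0.06 ± 0.06, and its 5 PLX sham libraries, at 655 to 823, surrounded the control-diet sham ones, at 687 to 718.

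In PLX ECT against control-diet ECT libraries, 71 of 80 members were negative, with a median log2 fold change of -0.057 (all genes 0.0027), which was -0.031 without PLX ECT library 15. No member was called by limma, edgeR, limma-voom or DESeq2, where limma called 2.3% of all genes, and 2 were lower at an unadjusted p below 0.05, Rps12 and Rpl18, against 6.03% of all genes. That count was 0 without library 5, 6, 13, 14 or 15, 1 without library 4, 4 without library 3, 24 or 25 and 5 without library 12. The share of all genes was 4.81% to 6.71% over all alternatives. No member had every PLX ECT library below every control-diet ECT library, as 2.23% of all genes did. The difference between the diet effects, tested as the ECT by diet interaction, gave 0 members past the threshold, where 0% of all genes passed. It had a median of 0.073 over members (all genes 0.00096), with 76 of 80 positive, and was 0.046 without PLX ECT library 12. At an unadjusted p below 0.05 there was 1 member, Rps13 (adjusted p 0.72 in limma), against 6.85% of all genes. The other tools also called 0. No single member was shown to differ in its diet effect between sham and ECT.

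Pooled over sham and ECT, 77 of 80 members were negative on the PLX diet, with a median log2 fold change of -0.084 against 0.0043 for all genes. One member passed the threshold, Rps12, where 3.05% of all genes did, and 40 were lower at an unadjusted p below 0.05, against 6.9% of all genes. DESeq2 called 4 members there and 3.66% of all genes. Rps12, a protein at the beak of the small subunit, had 2204, 2038, 2048 and 1989 normalized counts in PLX ECT libraries against 2158 to 2445 in control-diet ECT libraries (median 2261). It had 2079, 2193, 1827, 2121 and 1873 in PLX sham libraries against 2429, 2386, 2359, 2379.8 and 2142 in control-diet sham libraries. Within ECT the highest PLX library exceeded the 2 lowest control-diet libraries, and within sham library 18 exceeded library 11, so both pairs of groups overlapped. Rps12 fell by 0.18 ± 0.04 on the log2 scale in the pooled comparison (adjusted p 0.022 in limma), with -0.21 ± 0.06 in sham and -0.14 ± 0.06 in ECT. It lost the call when PLX library 15, 19 or 21 was left out, with adjusted p-values of 0.065, 0.054 and 0.051 in limma, within a range of 0.0046 to 0.065 over all alternatives. Members called were 6 without nonstressed library 24 (3.17% of all genes), 4 without nonstressed library 25 (3.25%) or control-diet ECT library 3 (3.15%), and 3 without PLX ECT library 12 (2.83%). Rpl18, a protein of the large subunit, came next, with 2196, 2027, 2056 and 1914 in PLX ECT libraries against 2098 to 2409.9 in control-diet ECT libraries (median 2232). It had 2099, 2087, 1951, 1996 and 1881 in PLX sham libraries against 2273, 2326, 2222, 2129 and 2140.1 in control-diet sham libraries, which did not overlap. Its pooled log2 fold change was -0.13 ± 0.04, with an adjusted p of 0.072 in limma.

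**Figure D4:**
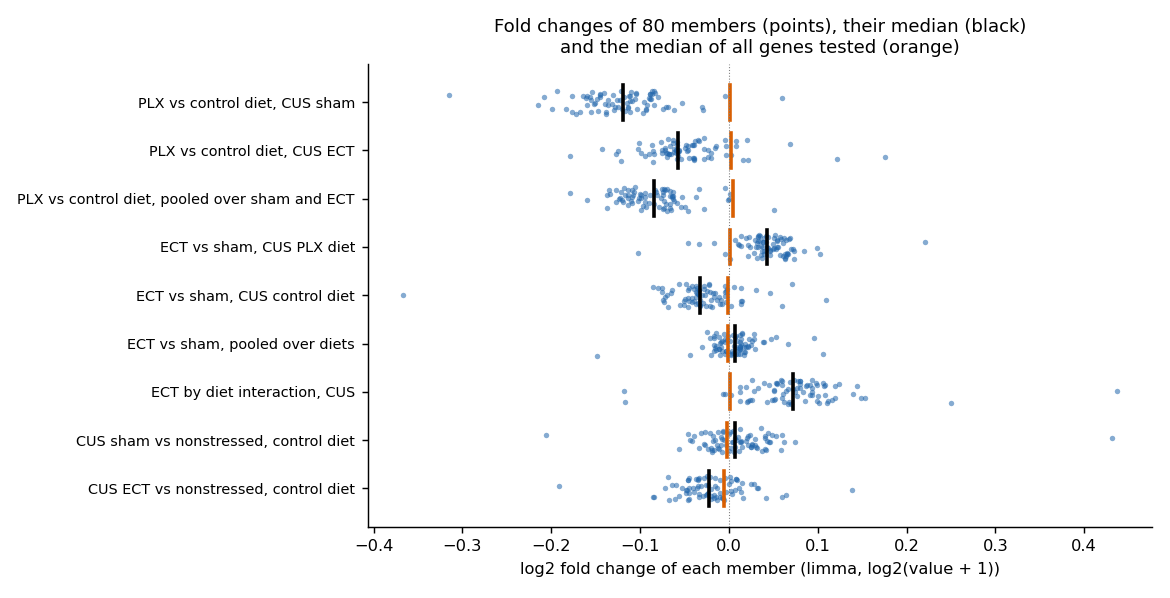
Log2 fold change of each of the 80 members (points) in 9 comparisons, with the members' median in black and the median of all 15225 genes tested in orange; points are spread vertically for display. The members' median is -0.12 for diet in sham, -0.057 for diet in ECT and close to the median of all genes for ECT pooled over diets.

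A set of well-studied members gave log2 fold changes of -0.18 to -0.07 for diet in sham, and the paralog Rpl22l1 lay outside that range. Among the stalk proteins, log2 fold changes were -0.15 ± 0.06 for Rplp0, -0.18 ± 0.07 for Rplp1 and -0.14 ± 0.06 for Rplp2. Rpl5 and Rpl11, which bind 5S ribosomal RNA and can inhibit the p53 regulator MDM2, gave -0.11 ± 0.05 and -0.13 ± 0.05. Rpl23 gave -0.12 ± 0.05, and Rpl13a, known for silencing specific mRNAs once released from the ribosome, -0.14 ± 0.06. Rps3, at the mRNA entry channel, gave -0.12 ± 0.05, and Rps6 -0.09 ± 0.05. Rps19, mutated in Diamond-Blackfan anaemia, gave -0.08 ± 0.06, Rps27a, made as a fusion with ubiquitin, -0.10 ± 0.06, and Rpsa, also called the laminin receptor, -0.09 ± 0.07. Among the largest proteins, Rpl3 gave -0.07 ± 0.05 and Rpl4 -0.09 ± 0.05, and Rpl22 gave -0.13 ± 0.05 where its paralog Rpl22l1 gave -0.0045 ± 0.07. None of these passed the threshold.

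Other genes of the pathway, taken from the same lists, were also compared for diet. Fau, which encodes the small-subunit protein eS30 fused to a ubiquitin-like domain, averaged 2263 ± 91.2 normalized counts in PLX ECT libraries against 2454 ± 109 in control-diet ECT libraries (SD, n = 4 and 6). It averaged 2221 ± 49.7 in PLX sham libraries against 2541 ± 154 in control-diet sham libraries (SD, n = 5 each). Fau fell by 0.15 ± 0.04 on the log2 scale in the pooled comparison (adjusted p 0.015 in limma, 0.0021 to 0.045 over the alternatives). It was the 1 gene called of 4 in its list, where 3.05% of all genes were called. Gnb2l1 and Rpl36al gave -0.09 and -0.07 without passing. All 7 elongation factors were negative in sham, with a median of -0.047, and none passed. In sham the median was -0.042 for other TOP mRNAs and -0.12 for snoRNA hosts, and in ECT it was 0.029 and 0.056, with 0 of 11 and 0 of 6 passing in either. Oxidative phosphorylation genes, mitochondrial ribosomal proteins and ribosome assembly factors had sham medians of 0.0017, -0.00050 and 0.0037, with none called. Pooled, 1 of 79 oxidative phosphorylation genes was called, where 3.05% of all genes were. It was Uqcrc2, a core subunit of respiratory complex III, which rose by 0.11 ± 0.03 on the log2 scale (adjusted p 0.016 in limma).

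Of 19 regulators of mTOR, MYC and translation, 1 was called for diet in sham, where 1.86% of all genes were. This was Rps6kb2, the gene of S6 kinase 2, which phosphorylates Rps6. It fell to 446 ± 33.3 normalized counts in PLX sham libraries, against 523 ± 19.0 in control-diet sham libraries (log2 fold change -0.23 ± 0.05, adjusted p 0.0103 in limma). It averaged 502 ± 14.9 in PLX ECT libraries and 460.6 ± 12.5 in control-diet ECT libraries, a log2 fold change of 0.12 ± 0.05 that did not pass. The interaction for Rps6kb2 was 0.36 ± 0.07 with an adjusted p of 0.63 in limma. The call in sham was lost when only the compared groups were fitted (adjusted p 0.058 in limma, in a range of 0.0038 to 0.058 over the alternatives).

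Marker lists of other cells were also compared for diet. All 10 microglia markers were called lower, with median log2 fold changes of -2.61 in sham and -2.83 in ECT, and none was at 0 in any library. Their mean log2 level ran from -2.19 to -1.26 in PLX ECT and from -1.92 to -1.02 in PLX sham libraries, against 0.75 to 1.03 in control-diet ECT and 0.997 to 1.21 in control-diet sham libraries. All 10 choroid plexus markers were positive for diet in sham, with a median of 1.61, and negative in ECT, with a median of -0.22, and 0 of 10 passed in either. Their mean level ran from -1.92 to 1.96 in PLX sham libraries and from -2.33 to 1.98 in control-diet sham libraries. The median diet shift of the members in sham was -0.145 with the choroid plexus and thalamus levels as covariates, against -0.12 without them. With group means removed, the members' mean level had Pearson correlations over the 24 libraries of 0.50 with the microglia list, 0.54 with the astrocyte list, -0.18 with the choroid plexus list and -0.31 with the thalamus list, all from the same libraries and size factors. Whether the lower microglia markers and the members' shift are linked was not tested, since microglia markers and diet cannot be told apart here.

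ECT gave no call among the members in either diet. In PLX ECT against PLX sham libraries 75 of 80 were positive, with a median log2 fold change of 0.043 (all genes 0.0016), which was 0.016 without PLX ECT library 12. In control-diet ECT against control-diet sham libraries 69 were negative, with a median of -0.032 (all genes -0.0013). That median was -0.0063 without control-diet ECT library 3, and -0.0148, -0.0197 and -0.050 without control-diet sham library 8, 7 and 11. Members called were 0 in both, by limma and by the other tools, where limma called 0% and 0.00657% of all genes. At an unadjusted p below 0.05 the counts were 0 on the PLX diet, against 2.55% of all genes, and 1, Rps4l, on the control diet, against 6.88%. Pooled over diets 48 were positive and 32 negative, with a median of 0.0072, 0 called where 0% of all genes were, and 0 at an unadjusted p below 0.05, against 2.49% of all genes. The direction of that median turned with 1 library, to -0.0073 without PLX ECT library 12, -0.0039 without PLX sham library 21 and -0.0030 without control-diet sham library 11. These comparisons share their libraries with the diet comparisons above, so they are not separate evidence.

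Rps4l, the transcribed pseudogene related to Rps4x, had the widest spread among members, with an SD of 0.28 log2 units over 24 libraries. It had 314, 305, 319.8 and 315 normalized counts in PLX ECT libraries and 317, 249, 357, 316 and 266 in PLX sham libraries. It had 177 to 370.0 in control-diet ECT libraries (median 299), 387, 428, 403, 384 and 277 in control-diet sham libraries, and 259.8, 329, 238 and 283 in nonstressed libraries. The groups overlapped in every comparison, though 4 of 5 control-diet sham libraries were above all others. Its log2 fold changes were 0.43 ± 0.16 for stressed sham against nonstressed mice and -0.37 ± 0.14 for ECT on the control diet, with adjusted p-values of 0.76 and 0.60 in limma. Rps4x, its expressed relative, gave 0.0076 ± 0.05 and -0.05 ± 0.05 in the same comparisons.

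**Figure D5:**
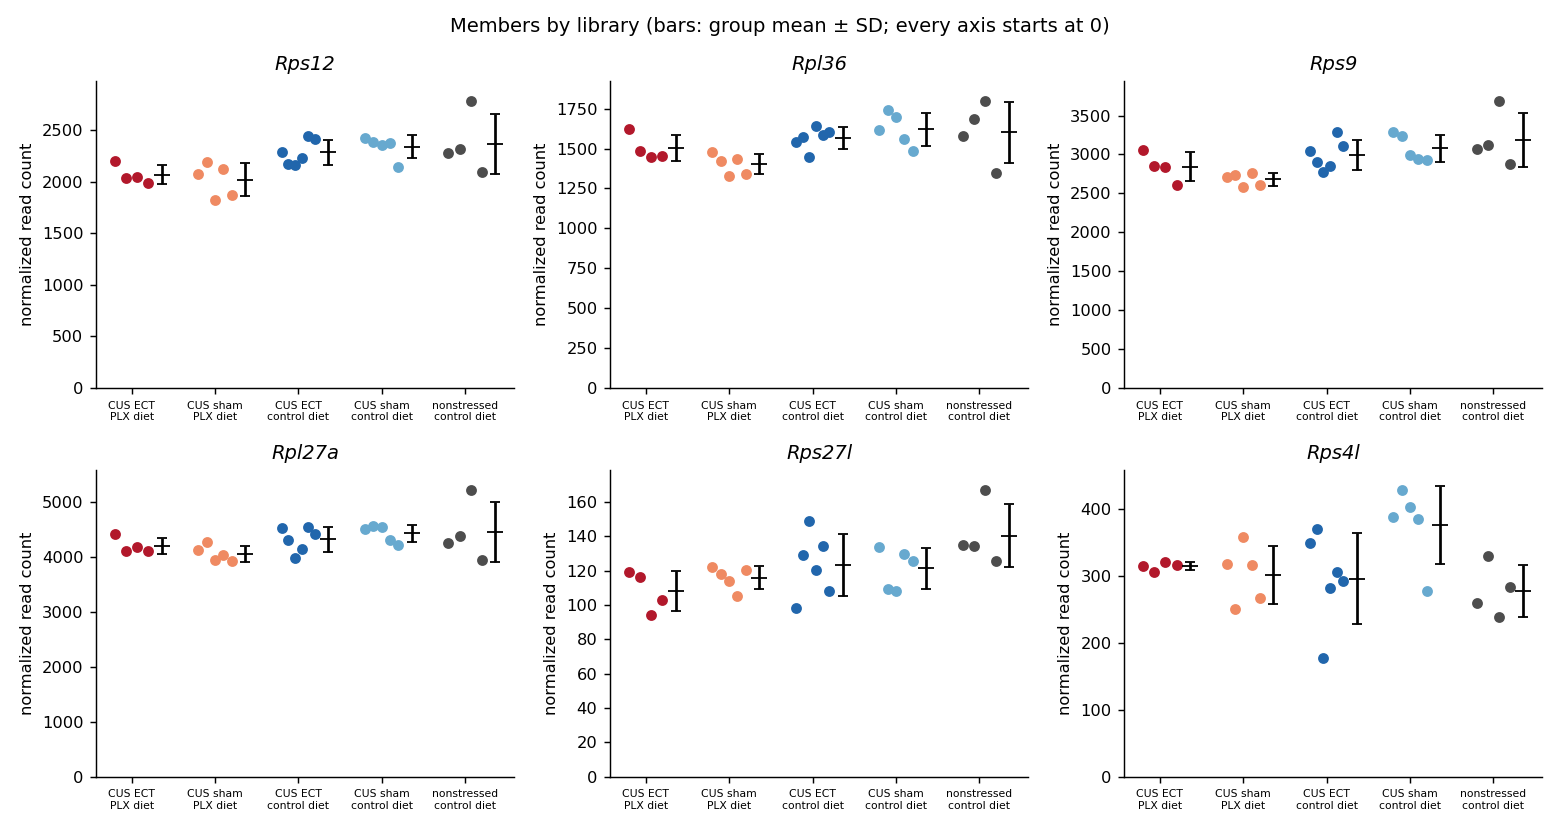
Normalized read counts of Rps12, Rpl36, Rps9, Rpl27a, Rps27l and Rps4l in each library, by group, with black bars for the group mean ± SD and every axis from 0. For Rpl36 and Rps9 all PLX sham points lie below all control-diet sham points, for Rps12 they overlap, and Rps27l and Rps4l spread without the block's order.

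No member passed the threshold between stressed and nonstressed mice on the control diet. In control-diet sham against nonstressed libraries 47 of 80 members were positive, with a median log2 fold change of 0.0064 (all genes -0.0020), 0 called where 0% of all genes were, and 1 at an unadjusted p below 0.05, Rps4l, against 6.5% of all genes. In control-diet ECT against nonstressed libraries 59 were negative, with a median of -0.023 (all genes -0.0054), 0 called where 0% of all genes were, and 0 at an unadjusted p below 0.05, against 7.34% of all genes. The other tools called 0 in both. These medians turned on the nonstressed libraries at the ends of the range. Without library 24 they were 0.074 and 0.046, and without library 25 they were -0.043 and -0.067. A test of any difference among the 5 groups (limma F test) called 0 members, where 2.4% of all genes were called and 14 members had an unadjusted p below 0.05, against 11.1% of all genes, with the smallest adjusted p at 0.11 for Rps12. DESeq2 called 2 members in that test (3.6% of all genes), and limma called 5 without library 25 (2.62%).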

How the data were processed

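RNA of 24 hippocampus samples was made into poly(A)-based libraries, per the labels' protocols. The deposited values (a signal unit, not raw counts) are normalized read counts, per the file headers, and prove to be whole reads over 1 size factor for each library. DESeq2 1.6.3, HTSeq 0.6.1p1, TopHat2 2.0.10 and cutadapt are listed in the submitters' processing notes, with mm10 and hg19 as builds and no roles. No source used here gives the annotation or strand setting, so antisense partners and near-identical copies cannot be told apart. Dividing each column by its step gave whole reads for 100% of values (tolerance 0.001), 14.97 M to 20.12 M per library. Replicates agreed at correlations of 0.974 to 0.994 across genes.

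The main test was limma 3.58.1 (R 4.3.3), with trended and robust variance, on log2(value + 1) of the 15225 genes kept by the filter, 10 or more in 4 or more libraries, in 1 model with 5 group means and 19 residual degrees of freedom. Benjamini-Hochberg adjustment ran over all genes in each of 9 comparisons and the F test, and genes with adjusted p below 0.05 were called. The added 1 makes fold changes of low genes too small. The count tools edgeR 4.0.16, DESeq2 1.42.0 and limma-voom ran on recovered reads as alternatives, because the table is normalized. Titles carry 14 letters of unstated meaning, 10 of them on more than 1 library and 0 in more than 1 group, and the main test ignores them.

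Named members were those called, the 2 most positive and 2 most negative per comparison, the 3 most and 3 least like the others, 15 fixed members and paralog pairs. Rps9, Rpl13, Rpl26 and Rpl34 fall outside that rule and were chosen after their values were seen, and values of some genes the rule names are not reported here. The members and all lists were chosen with earlier results of these data known, so no list is independent evidence and none was tested as a set. Lengths are medians over coding transcripts of GENCODE M21. The lists of mTOR, assembly, TOP, snoRNA host, elongation, mitochondrial and oxidative phosphorylation genes, and 10 marker lists, are described by counts and medians. Of the marker lists, striatum, neocortex, hippocampal neurons, astrocytes, oligodendrocytes and meninges had median log2 fold changes of 0.093, 0.28, -0.015, 0.031, -0.19 and 0.62 for diet in sham, with none called, thalamus -0.29, and blood, with Hba-a1, Hba-a2 and Hbb-bt at 0 in all libraries, had 1 tested gene at 0.24.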

Additional observations from a re-analysis of the deposited data

Results flagged for a closer look

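Sets of values were checked for a named member, the mean member level or the members' percent of reads, each in 1 group of 4 to 6 libraries. In 6 of 180 sets 1 library stood far from the rest by Dixon's ratio, which chance reaches in about 1 in 20 such sets. All 6 were sets of a named member. For Rps12, control-diet sham library 11 had 2142 normalized counts and the nearest other library of its group 2359. For Rpl30, control-diet sham library 8 had 61.3, and the next highest was 52.5. In nonstressed library 24, Rpl5 had 4674, Rpl3 had 9698 and Rpl4 had 11470.2, where the nearest other nonstressed libraries had 3971, 8391 and 9725, and this is the library in which 78 of 80 members were above their own mean. For Rpl7, control-diet ECT library 4 had 3632 normalized counts and the nearest other library 3768.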

How the results depend on the processing

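Each comparison was recomputed under 35 alternatives, 24 that leave out 1 library and 11 others (34 for the F test, which cannot be run on only 2 groups). The counts of members called between stressed and nonstressed mice, for ECT and the interaction, and for diet in ECT, were 0 in all of them. For diet in sham, where 0 members were called, fitting only the compared groups called 3 (Rps9, Rpl13, Rpl36), against 1.81% of all genes. DESeq2 called 2 (2.1%). With 1 library left out 0 to 2 were called, 2 without library 24 (Rps12 and Rps9, 1.9%) and 1 without library 25 (Rpl36, 1.95%). For diet pooled, where 1 was called, 8 were with only the compared groups, against 3.26% of all genes. The count was 4 with DESeq2 (3.66%) and 2 with choroid plexus and thalamus levels as covariates (2.74%). With 1 library left out the count was 0 to 6. It was 0 without 15 (2.47%), 19 (2.71%) or 21 (2.89%), and 3 without 12 (2.83%). It was 4 without 3 (3.15%) or 25 (3.25%), and 6 without 24 (3.17%). The F test, with 0 calls, gave 2 with DESeq2 (3.6% of all genes) and 0 to 5 with 1 library left out (5 without 25, 2.62%). Nonstressed libraries enter the diet comparisons only through the spread estimate. Without library 24 the sham fold change of Rps12 stayed at -0.215, and without library 25 that of Rpl36 stayed at -0.208. The cause of the changes in calls was otherwise not tested. Members lower at an unadjusted p below 0.05 ranged over 26 to 58 for diet in sham, 0 to 5 in ECT and 27 to 56 pooled. The shares of all genes were 4.68% to 6.51%, 4.81% to 6.71% and 5.67% to 7.55%. The members' median stayed within -0.145 to -0.104, -0.079 to -0.031 and -0.1005 to -0.075 in the same order. The median ranged over 0.046 to 0.095 for the interaction, 0.016 to 0.064 for ECT on the PLX diet, -0.050 to -0.0063 for ECT on the control diet and -0.0073 to 0.019 for ECT pooled. A random effect for title letters (consensus correlation 0.192) left 1 member called in the pooled comparison. Library levels shifted by at most 0.052 log2 units, less than the within-group SD of 0.085. After rescaling to the summed value of other genes, the median log2 fold change of all genes was at most 0.022 in size in any comparison. No paired analysis was possible because library numbers are not shared between groups. Low counts limit Rps27, Rpl30 and Rpl34.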
